A study of Mus musculus with 6 samples.

Results

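Transcript levels of 9 transcription factor genes that direct the macrophage lineage were compared between knockdowns of PGAM5 and of DRP1 in macrophages given interleukin-4. The genes were chosen by symbol: Spi1, Cebpa, Cebpb, Cebpd, Maf, Klf2, Klf4, Runx1 and Zeb2. All 9 were found among the 54532 gene identifiers of each library. The cells were macrophages grown from mouse bone marrow and immortalised, so that they keep dividing in culture. They carried a short hairpin RNA against PGAM5, a protein phosphatase of mitochondria, or against DRP1, the GTPase that divides mitochondria (gene Dnm1l). All had been given interleukin-4 at 10 ng/ml for 24 h, and each knockdown had 3 libraries. Libraries with a control hairpin or without interleukin-4 were not analysed here, so a difference below is between the knockdowns and does not tell which of them moved.

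Macrophages form when a few factors act together on the same enhancers. PU.1, encoded by Spi1, opens chromatin at myeloid genes and is needed for the lineage, and RUNX1 acts upstream of it in blood stem cells. The C/EBP proteins are leucine zipper factors that pair with each other: C/EBP alpha drives the early myeloid choice, while C/EBP beta and delta are raised by inflammatory signals in mature cells. KLF4 promotes monocytes and is induced by interleukin-4, KLF2 restrains inflammatory genes, c-MAF favours resident macrophages and interleukin-10, and the repressor ZEB2 keeps macrophage identity.

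The values of the 6 libraries are FPKM, fragments scaled by exon length and by the library's total. The totals worked back from these values ran from 16111280 to 21933548 fragments. Which fragments they include is not known from the sources used here. Pgam5 stood at 4.6 to 5.21 FPKM with its own hairpin and 17.1 to 17.3 with the other, and Dnm1l at 7.12 to 8.18 with its own and 17.2 to 18.7 with the other. Libraries of a group correlated across genes at 0.9926 to 0.9952 (Pearson, log2 scale). Between libraries of a group the recovered fragments differed with a chi-square per gene of 2.6 to 7.62, above sampling noise for every pair, and highest for the pairs with library 3 of the PGAM5 knockdown (7.62 and 5.55, against 2.6 to 3.02 for the others). That library was also the lowest of its group for 6 of the 8 tested factors, and library 3 of the DRP1 knockdown, the deepest, was the highest of its group for 7. The share of all tested genes for which this holds is not given here, and a part of depth in it was not tested. The titles number the libraries 1 to 3 and do not tell whether the numbers stand for cultures or hairpins. A p-value below therefore reflects no more than the spread among these samples, and that spread may be technical.

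The cells carried macrophage markers. Of 10 such genes, Cd14, Lyz2, Cd68, Csf1r, Adgre1, Fcgr1, Ptprc and Itgam passed a mean of 1 FPKM, while Aif1 (0.495 and 0.379 FPKM) and Mertk (0 and 0.00785) lay below it. Cd68, Csf1r, Lyz2 and Fcgr1 were lower in the PGAM5 knockdown and the other 4 tested markers did not pass. That is 50% lower, against 11.7% of all tested genes. Summed over the 10 markers, FPKM ran from 3590 to 3750 with PGAM5 knocked down and from 4640 to 4680 with DRP1 knocked down. Abundant genes weigh most in this sum, among them Lyz2 (means of 1270 and 1950 FPKM) and Cd68 (501 and 682). The 4 that did not pass were Cd14 (1650 and 1710), Adgre1 (43.9 and 43.4), Ptprc (13.3 and 13.6) and Itgam (3.88 and 4.38). The sum is therefore no measure of a change shared by all markers. The part of the difference in the sum in the results below was not tested. In bulk RNA, fewer cells of a type and less RNA per cell cannot be told apart. Markers of granulocytes, dendritic cells, erythroid and mast cells and fibroblasts were near 0, with sums of at most 1.37 FPKM in any library. The most abundant gene of each of these lists averaged 0.0857 and 0.0263 FPKM (Prtn3), 0.185 and 0.309 (Itgax), 0.199 and 0.503 (Cpa3), and 0.625 and 0.372 (Acta2). Of the lymphoid list the kinase gene Lck stood at 7.21 and 6.88 FPKM, while 6 of the 12 genes were at 0 in all libraries.

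Of these factors 3 were lower and 1 was higher in the PGAM5 knockdown. Cebpa was 1.88-fold lower, Cebpb 1.11-fold lower and Zeb2 1.17-fold lower, while Cebpd was 1.34-fold higher. Spi1, Klf2, Klf4 and Runx1 did not pass, and Maf was too low to test. Genes with a mean of at least 1 FPKM were tested with limma on log2(FPKM + 1), with Benjamini-Hochberg adjustment over all 10634 genes and a threshold of 0.05. Of the 8 tested factors 1 rose and 3 fell, 12.5% and 37.5%, where 13.8% and 11.7% of all tested genes did. Their median log2 difference was -0.12, against 0.009 over all tested genes. The groups did not overlap for 5 of the 8 (62.5%), against 43.5% of all tested genes.

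**Figure D1:**
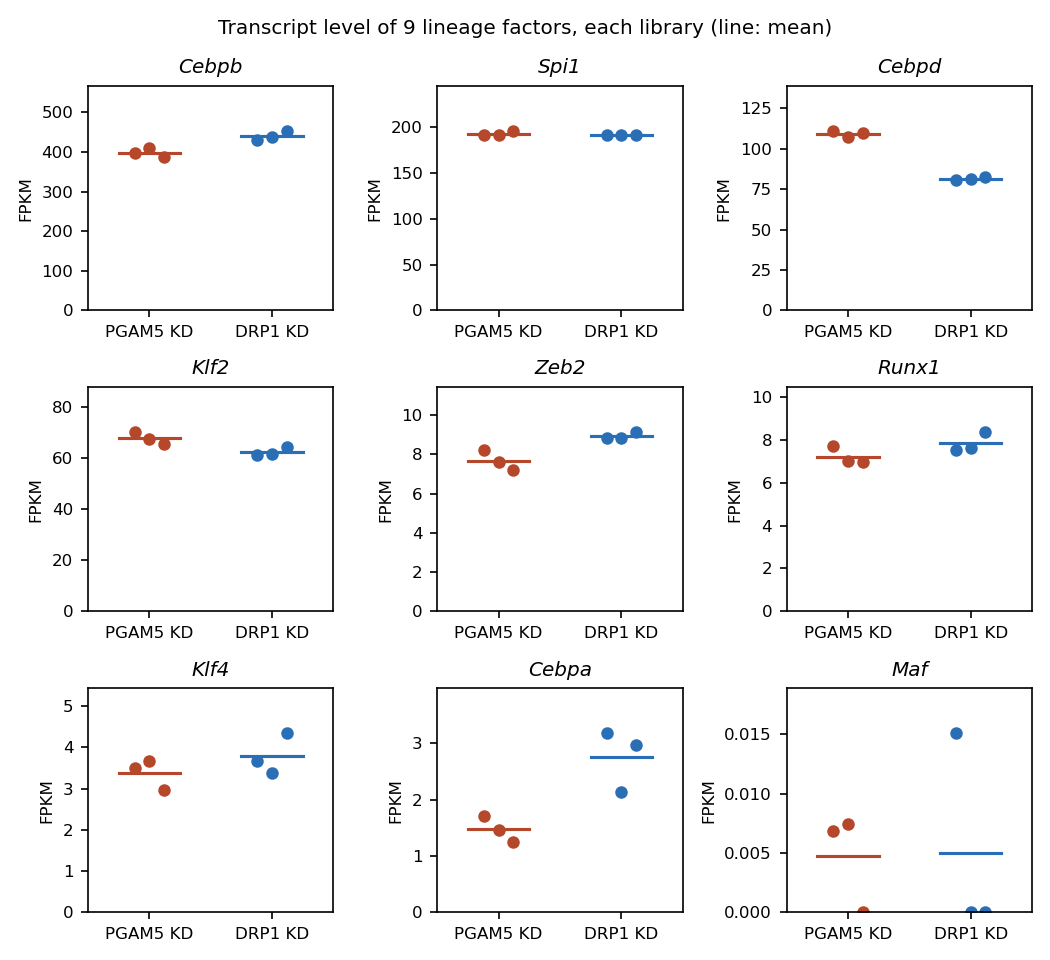
FPKM of each of the 9 factors (y axis, from 0, own scale per panel) in the 3 libraries of the PGAM5 knockdown (red) and the 3 of the DRP1 knockdown (blue), with the group mean as a line. Cebpd lay at 107 to 111 against 80.7 to 82.4 FPKM and Cebpa at 1.24 to 1.71 against 2.14 to 3.18, while the 6 values of Spi1 lay between 191 and 196.

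The order of the 9 levels was the same in both knockdowns. From high to low it ran Cebpb, Spi1, Cebpd, Klf2, Zeb2, Runx1, Klf4, Cebpa and Maf. Neighbours in this order overlapped only for Zeb2 and Runx1 in the PGAM5 knockdown (7.19 to 8.23 and 6.94 to 7.68 FPKM). The span was wide: Cebpb reached the level of the top genes, at or above 98.9% of tested genes in the PGAM5 knockdown, and Cebpa stood at or above 6.5% there and 18.4% in the DRP1 knockdown. FPKM divides by the summed length of all annotated exons, which for Zeb2 is 19942 bases against 9124 in its longest transcript and for Runx1 12025 against 5861. The levels of these genes are therefore set low beside Cebpb, Cebpd and Cebpa, which have a single exon each.

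Spi1 encodes PU.1 and lies on chromosome 2 (91082390 to 91115756, plus strand, mm10, ENSMUSG00000002111). It measured 192, 191 and 196 FPKM with PGAM5 knocked down against 191, 191 and 192 with DRP1 knocked down, from 8285 to 11323 fragments each. The groups overlapped and the difference did not pass, at a log2 difference of 0.01 with a 95% interval of -0.04 to 0.07 (limma adjusted p = 0.73). Its sign was the reverse under quantile normalization.

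The C/EBP genes moved in different directions. Cebpa, at chromosome 7 (35119293 to 35121928, plus strand, 1 exon, ENSMUSG00000034957), was scarce in every library. It measured 1.71, 1.46 and 1.24 FPKM in the PGAM5 knockdown and 3.18, 2.14 and 2.96 in the DRP1 knockdown. Behind these stood 80, 63 and 60 fragments against 135, 100 and 171, so no library of the PGAM5 knockdown reached the lowest of the other group. The log2 difference was -0.60 (SE 0.12, limma adjusted p = 0.012). On the log2(FPKM + 1) scale this understates a gene so low, and with a pseudocount of 0.1 it was -0.86. Cebpa was lower in all 13 alternatives, with adjusted p from 0.0026 to 0.049. Its spread between libraries was 16% and 20% of the mean, where counting alone gave 12% and 8.8%.

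Cebpb, at chromosome 2 (167688915 to 167690418, plus strand, 1 exon, ENSMUSG00000056501), was the most abundant factor. It measured 397, 410 and 386 FPKM against 430, 438 and 453, with no overlap of the groups. The log2 difference was -0.15 (SE 0.034, limma adjusted p = 0.018). The call held in 9 of 13 alternatives, with limma adjusted p from 0.0031 to 0.074. Among those that ended it were leaving out library 2 (0.063) or library 3 (0.074) of the DRP1 knockdown and dropping the expression filter (0.061). Of its exon sequence 20.7% overlaps Tmem189 on the other strand, itself at 41.1 and 40.1 FPKM, and whether the counting used strand is not known from the labels.

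Cebpd, at chromosome 16 (15887286 to 15891031, plus strand, 1 exon, ENSMUSG00000071637), was the 1 factor that rose. It measured 111, 107 and 110 FPKM in the PGAM5 knockdown and 80.7, 81.4 and 82.4 in the DRP1 knockdown. The lowest PGAM5 library lay well above the highest DRP1 library, from 4871 to 7564 fragments per library. The log2 difference was 0.42 (SE 0.027, limma adjusted p = 8.8e-05), and it was higher in all 13 alternatives. Spidr, a DNA repair gene on the other strand, overlaps 15.0% of its exon sequence and ranged from 8.7 to 8.85 FPKM against 7.87 to 8.09. The groups of Spidr did not overlap, yet it did not pass (log2 difference 0.12, limma adjusted p = 0.051). It passed as higher with a pseudocount of 0.1, without the trend and with voom on recovered fragments.

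Because these proteins pair with each other, their transcripts were also set against each other within each library, which removes that library's scaling apart from the pseudocount. Cebpd stood at 0.280, 0.261 and 0.286 of Cebpb in the PGAM5 knockdown and at 0.188, 0.186 and 0.182 in the DRP1 knockdown. Cebpd exceeded Cebpa 75.6 ± 12-fold against 30.4 ± 6.6-fold (SD, n = 3), and Cebpb exceeded Cebpa 274 ± 39-fold against 164 ± 36-fold. None of these 3 ratios overlapped between the groups, and each had an exact two-sided permutation p of 0.1, the smallest that 3 against 3 libraries can give (0.114 adjusted over 8 ratios). For the ratios with Cebpd this follows from the single genes, which were already separated in opposite directions. Those ratios are therefore a description and add no separate support. Of the summed FPKM of the 6 C/EBP genes, Cebpd took 18.8% ± 0.58 in the PGAM5 knockdown against 13.6% ± 0.15 in the DRP1 knockdown. Cebpb took 68.2% ± 1.1 and 73.6% ± 0.36, and Cebpa 0.252% ± 0.038 and 0.461% ± 0.093. The family sum itself was 584 ± 8.25 and 599 ± 12.9 FPKM, with overlap between 587 and 591 FPKM. The other relatives, Cebpg (45.4 ± 1.99 and 44.0 ± 0.553 FPKM), Cebpz (26.7 ± 0.0698 and 26.6 ± 0.937) and the granulocyte factor gene Cebpe (2.82 ± 0.473 and 3.35 ± 0.456), did not pass.

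**Figure D2:**
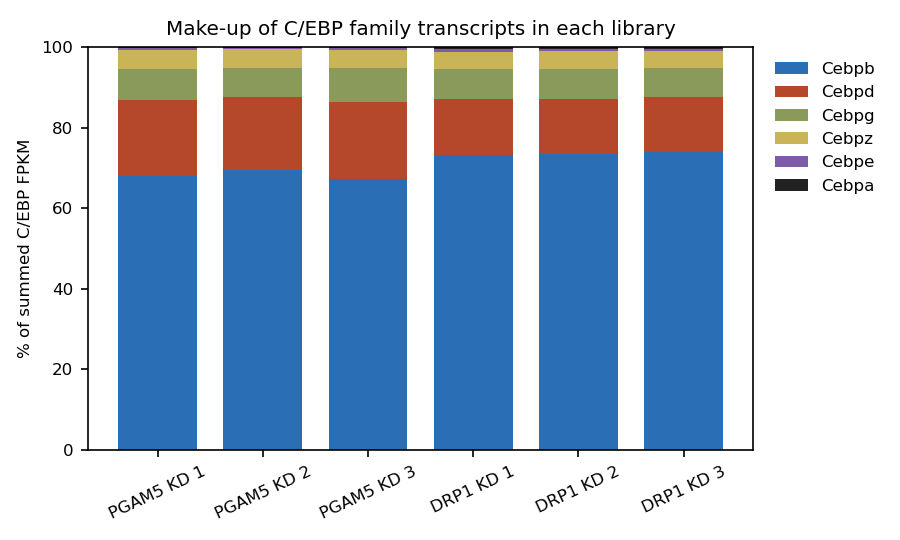
Share of each C/EBP gene in the summed FPKM of the 6 C/EBP genes (y axis, percent, from 0) in each of the 6 libraries. Cebpd takes 18.1% to 19.2% in the PGAM5 knockdown and 13.5% to 13.8% in the DRP1 knockdown, and Cebpa, the topmost band, less than 1 percent throughout.

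The zinc finger factor gene Zeb2 lies on chromosome 2 (44983632 to 45117395, minus strand, ENSMUSG00000026872). It measured 8.23, 7.6 and 7.19 FPKM in the PGAM5 knockdown and 8.85, 8.82 and 9.15 in the DRP1 knockdown, from 2475 to 4003 fragments. The groups did not overlap (log2 difference -0.20, SE 0.053, limma adjusted p = 0.031). The call held in 6 of 13 alternatives, with limma adjusted p from 0.0023 to 0.1. Among those that ended it were leaving out library 2 or 3 of the PGAM5 knockdown (0.084 and 0.055), leaving out library 1, 2 or 3 of the DRP1 knockdown (0.08, 0.078 and 0.1) and dropping the expression filter (0.07). Its antisense gene Zeb2os was at 0.388 and 0.387 FPKM. Set against Spi1 within each library, Zeb2 was at 0.0398 ± 0.0031 and 0.0468 ± 0.00086 (exact permutation p = 0.1). Spi1 was nearly level over the libraries, so this ratio restates the separated Zeb2 values and adds no separate support. The Zeb2 paralog Zeb1 was near 0, at 0.159 and 0.120 FPKM, so Zeb2 made up 98.0% and 98.7% of the transcripts of that pair.

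The sequences just before the starts of the lower factors are shown because these 3 genes were the ones that fell. RefSeq promoter entries (build GRCm38.p6) were found for 6 of the 9 genes, and Spi1, Cebpd and Maf were not among them. The 250 bases before the start are printed 5′ to 3′ on the strand of the gene. For Zeb2 the start farthest upstream of 4 entries was taken. Capitals mark any of 6 motifs searched on both strands. The letters searched were TTGCNNAA for a C/EBP-type site, GAGGAA for a PU.1-type site, GGGCGG for a GC box, CCACCC for a so-called CACCC box and TATAAA for a TATA box, and the CCAAT box was searched by the letters of its name. Overlapping matches of the GC box run together.
Cebpa (chr7:35119043-35119292, plus strand): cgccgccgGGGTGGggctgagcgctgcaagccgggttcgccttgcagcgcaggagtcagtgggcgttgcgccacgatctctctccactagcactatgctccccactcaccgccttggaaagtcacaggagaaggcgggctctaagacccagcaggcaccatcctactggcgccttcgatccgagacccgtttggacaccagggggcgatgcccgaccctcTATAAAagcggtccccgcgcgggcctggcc
Cebpb (chr2:167688665-167688914, plus strand): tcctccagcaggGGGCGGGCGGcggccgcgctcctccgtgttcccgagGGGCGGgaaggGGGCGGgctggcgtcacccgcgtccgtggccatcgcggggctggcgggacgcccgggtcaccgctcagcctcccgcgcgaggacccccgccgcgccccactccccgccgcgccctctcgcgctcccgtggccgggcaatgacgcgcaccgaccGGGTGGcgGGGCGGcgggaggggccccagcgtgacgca
Zeb2 (chr2:45117443-45117692, minus strand): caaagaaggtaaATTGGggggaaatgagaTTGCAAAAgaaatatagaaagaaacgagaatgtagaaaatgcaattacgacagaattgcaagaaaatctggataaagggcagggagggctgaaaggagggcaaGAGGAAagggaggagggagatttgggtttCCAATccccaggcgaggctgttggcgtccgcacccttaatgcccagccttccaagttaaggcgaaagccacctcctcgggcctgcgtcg
Cebpa held 1 TATA box, 30 bases before the start, and 1 CACCC box. Cebpb held 5 GC boxes and 1 CACCC box in a window with 81.6% G and C, and Zeb2 held 2 CCAAT boxes, 1 PU.1-type site and 1 C/EBP-type site in a window with 49.6%. Over the 32851 promoter windows in the table, 12.4% held the TATA box, 28.1% the CACCC box, 32.7% the GC box, 33.8% the CCAAT box, 23.3% the PU.1-type site and 9.56% the C/EBP-type site. The CACCC box was in the printed windows of Cebpa and Cebpb, and no motif of this set was in all 3 printed windows. This depends on the Zeb2 start taken. The Zeb2 window at chr2:45110278-45110527 held 1 CACCC box and 1 GC box, and no C/EBP-type site or CCAAT box. With that start the CACCC box was in all 3 genes. It was not particular to them, as the window of Klf2, which did not pass, also held 1 CACCC box. The windows of Klf4 and Runx1 held 0. A match is a description of the letters only.

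Runx1, at chromosome 16 (92601466 to 92826149, minus strand, ENSMUSG00000022952), did not pass. It measured 7.68, 7.01 and 6.94 FPKM in the PGAM5 knockdown and 7.53, 7.6 and 8.36 in the DRP1 knockdown. The highest PGAM5 library lay above 2 of the DRP1 libraries, and the log2 difference was -0.10 (95% interval -0.24 to 0.03, limma adjusted p = 0.23). Its DNA-binding partner gene Cbfb stood at 32.6 ± 0.758 and 33.6 ± 0.698 FPKM and did not pass either. The paralog Runx3, known from lymphocytes and dendritic cells, was 2.11-fold lower, at 1.04, 1.03 and 0.851 FPKM against 2.31, 1.85 and 1.98 (log2 difference -0.63, limma adjusted p = 0.0023). Runx3 was tested because its mean over the 6 libraries was 1.51 FPKM. Its mean in the PGAM5 knockdown alone, 0.972 FPKM, lay below the filter, so it passed through the group where it was high. With Runx3 that low, Runx1 took 87.3% ± 1.2 of the summed FPKM of the 3 RUNX genes in the PGAM5 knockdown against 78.3% ± 2.1 in the DRP1 knockdown. That shift is a description.

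Of the Krüppel-like factors, Klf2 (chromosome 8, 72319033 to 72321656, plus strand, ENSMUSG00000055148) was abundant and Klf4 (chromosome 4, 55527143 to 55532466, minus strand, ENSMUSG00000003032) low. Klf2 measured 70.2, 67.5 and 65.4 FPKM against 61.1, 61.4 and 64.2. Its groups did not overlap, yet it did not pass, at a log2 difference of 0.12 (95% interval 0.03 to 0.21, limma adjusted p = 0.051). It passed in 2 of 13 alternatives, voom on recovered fragments (adjusted p = 0.045) and without library 3 of the PGAM5 knockdown (0.024). Klf4 measured 3.49, 3.66 and 2.96 FPKM against 3.66, 3.39 and 4.35, with overlap, from 165 to 291 fragments. Its log2 difference was -0.14 (95% interval -0.36 to 0.09, limma adjusted p = 0.34). The ratio of Klf2 to Klf4 was 20.1, 18.4 and 22.1 against 16.7, 18.1 and 14.7 (exact permutation p = 0.1). Klf2 held 41.3% ± 0.36 and 41.1% ± 0.57 of the summed FPKM of 17 KLF genes, a sum that was itself 164 ± 4.51 and 151 ± 2.16 FPKM.

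Maf, the gene of c-MAF, lies on chromosome 8 (115682942 to 115707794, minus strand, ENSMUSG00000055435). It had 1, 1 and 0 fragments in the PGAM5 knockdown and 2, 0 and 0 in the DRP1 knockdown, below the 3 fragments taken as the floor in every library. That floor corresponds to 0.0166 to 0.0226 FPKM for Maf, and no fold is given. All 16 listed target genes of c-MAF lay below the filter, 7 of them at 0 in all libraries. The complement genes C1qa, C1qb and C1qc and the receptor genes Cd163, Folr2 and Vsig4 were among those at or near 0, each with a mean of at most 0.035 FPKM. The most abundant of the 16, chosen after its values were seen, was Il10, the gene of the anti-inflammatory cytokine interleukin-10. It measured 0.73, 0.514 and 0.875 FPKM in the PGAM5 knockdown, from 17, 11 and 21 fragments, and 0.0474, 0.129 and 0.0696 in the DRP1 knockdown, from 1, 3 and 2. With no expression filter Il10 was higher (log2 difference 0.65, limma adjusted p = 0.0092), a fit that the filter keeps out of the counts above. Its DRP1 values lay at or below the floor of 3 fragments used for Maf, so the size of this difference is uncertain.

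**Figure D3:**
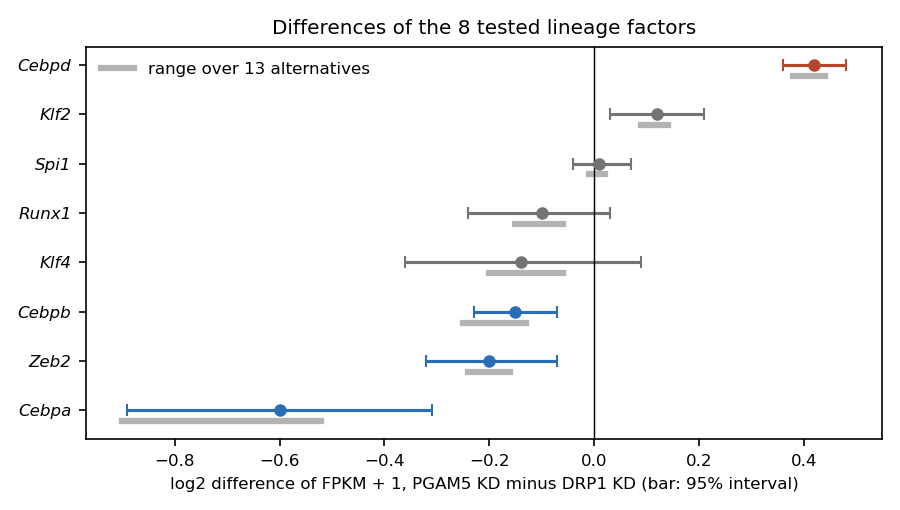
Log2 difference of FPKM + 1, PGAM5 knockdown minus DRP1 knockdown (x axis), for the 8 tested factors, with the 95% interval of the limma fit as a bar and the range over 13 alternatives in grey. Cebpd (0.42) was higher, Cebpa (-0.60), Zeb2 (-0.20) and Cebpb (-0.15) were lower, and the 4 in dark grey did not pass.

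Among 34 paralogs and binding partners found, 26 were tested, of which 3 rose, 3 fell and 20 did not pass. That is 23.1% called, against 25.4% of all tested genes, with a median log2 difference of -0.01. The genes that rose were Maff, a small MAF protein without an activation domain, at 9.77 ± 0.0869 against 6.28 ± 0.668 FPKM (log2 difference 0.57), Klf10, a factor induced by TGF-beta, at 12.5 ± 0.339 against 8.31 ± 0.409 (0.53), and the ETS factor Ets2 at 164 ± 3.21 against 134 ± 1.45 (0.29). Those that fell were Runx3, the ETS factor Elf1 at 15.3 ± 0.555 against 19.1 ± 0.413 FPKM (-0.30), and Klf11 at 3.18 ± 0.0473 against 3.79 ± 0.185 (-0.20). Runx3 passed the filter only through the DRP1 knockdown, as its mean in the PGAM5 knockdown was 0.972 FPKM. The call of Klf11 was lost in 8 of 13 alternatives, among them leaving out any 1 of the 6 libraries (limma adjusted p from 0.054 to 0.12). The PU.1 relatives Spib and Spic were near 0, at means of 0.166 and 0.081, and 0.0631 and 0.119 FPKM.

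Of 51 other transcription factors of myeloid cells, 31 were tested, and 6 rose, 6 fell and 19 did not pass (38.7% called, against 25.4% of all tested genes, with a median log2 difference of 0.028). The largest increase was in Id3, at 46.5, 46.3 and 46.8 FPKM against 22.7, 23.0 and 24.4 (log2 difference 0.97, limma adjusted p = 9.8e-06). Id3 and Id1 encode inhibitors that block basic helix-loop-helix factors, and Id1 stood at 16.7 ± 2.07 against 10.2 ± 1.02 FPKM (0.66), while Id2 did not pass (32.7 ± 0.989 and 33.8 ± 0.555). Nr4a1, an orphan nuclear receptor of patrolling monocytes, rose from 1.17 ± 0.0634 in the DRP1 knockdown to 2.29 ± 0.417 FPKM in the PGAM5 knockdown (0.59). The largest decrease on the log2(FPKM + 1) scale was in Gfi1, a repressor that favours granulocytes over monocytes. It stood at 4.36, 4.59 and 4.23 FPKM against 8.14, 8.92 and 9.47 (-0.87, limma adjusted p = 0.00011). Egr1, an early growth response factor tied to monocytic differentiation, was at 1.76 ± 0.282 against 3.88 ± 0.128 FPKM (-0.83), and the repressor gene Bhlhe41 at 9.31 ± 0.293 against 13.7 ± 0.401 (-0.51). By the ratio of mean FPKM Egr1 was further down than Gfi1, 2.2-fold against 2.01-fold. Irf8, the partner of PU.1 in monocyte development and named here after its values were seen, measured 10.8 ± 0.295 and 10.9 ± 0.178 FPKM and did not pass. Of 20 factors below the filter 7 were at 0 in all libraries, Pparg among them, and Irf4 (0.136 and 0.0958 FPKM) and Egr2 (0.745 and 0.956), factors known to respond to interleukin-4, were low.

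**Figure D4:**
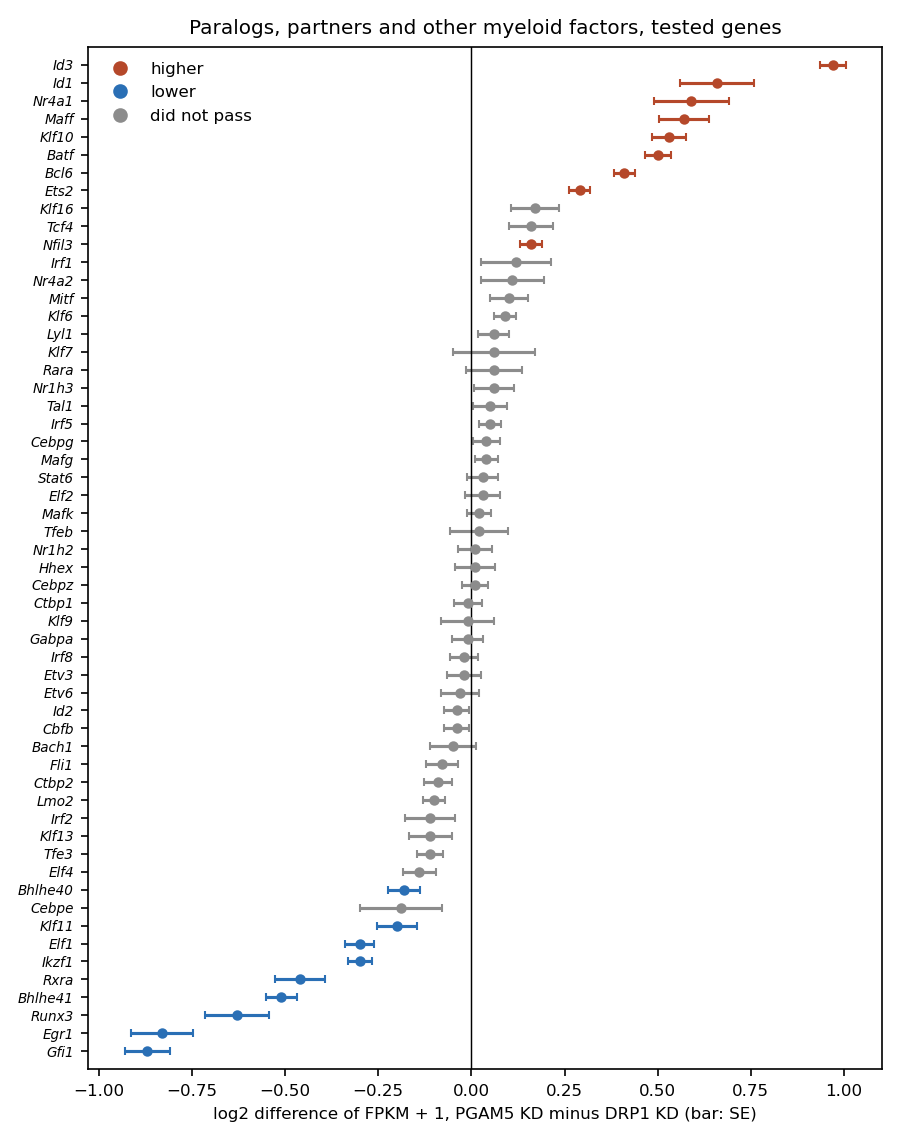
Log2 difference of FPKM + 1 with its SE, PGAM5 knockdown minus DRP1 knockdown (x axis), for 56 tested paralogs, partners and other myeloid factors, coloured by whether they passed. Id3 (0.97) lies at the top, and Gfi1 (-0.87) and Egr1 (-0.83) at the bottom.

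Genes known as targets of PU.1 or C/EBP were mostly lower in the PGAM5 knockdown. Of the 33 tested of 34 listed, 3 rose, 18 fell and 12 did not pass. That is 9.09% higher and 54.5% lower, against 13.8% and 11.7% of all tested genes, and the median log2 difference was -0.128. The list was chosen with earlier results of these data known, so its shares beside those of all genes are a description. It shares 8 genes with the macrophage markers above, whose sum differed between the groups. The 6 largest differences among those that passed were all decreases. They were the lysozyme gene Lyz1 (-2.32), the granulocyte-macrophage colony-stimulating factor receptor gene Csf2ra (-0.83), the oxidase subunit gene Cybb (-0.75), Lyz2 (-0.62), Csf1r (-0.60) and the endosomal glycoprotein gene Cd68 (-0.44). Lyz1 measured 3.92, 3.98 and 4.97 FPKM against 25.6, 25.1 and 25.4. It is a paralog of Lyz2, and a search at 97% identity over 100 bases matched 0% of either transcript to another gene. Similarity below that cutoff was not searched, and assignment of fragments of Lyz2 to Lyz1 was not tested. Cybb measured 28.3 ± 1.32 against 48.3 ± 1.47 FPKM (SD, n = 3), and Csf2ra 14.6, 13.2 and 11.4 against 23.7, 24.0 and 24.1. Csf1r shares 15.1% of its exon sequence with Hmgxb3 on the other strand. Of the other phagocyte oxidase genes, named after their values were seen, Ncf4 measured 69.2 ± 1.31 against 81.4 ± 0.663 FPKM, Ncf1 116 ± 3.15 against 125 ± 0.517, and Cyba did not pass. The call of Ncf1 was lost in 6 of 13 alternatives, among them leaving out library 2 of the PGAM5 knockdown or library 1, 2 or 3 of the DRP1 knockdown (limma adjusted p of up to 0.1). The 3 that rose, also named after their values were seen, were Fcgr2b, the inhibitory Fc receptor (8.70 ± 0.603 against 6.41 ± 0.128 FPKM, with 8.83% of its sequence near-identical to other genes), the actin regulator gene Coro1a (290.0 ± 15.9 against 228 ± 1.57) and the Toll-like receptor gene Tlr2 (61.5 ± 1.77 against 52.7 ± 0.988). Of the 18 that fell, 15 kept their call in every alternative that could be run for them. Between 15 and 21 fell when a library was left out.

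**Figure D5:**
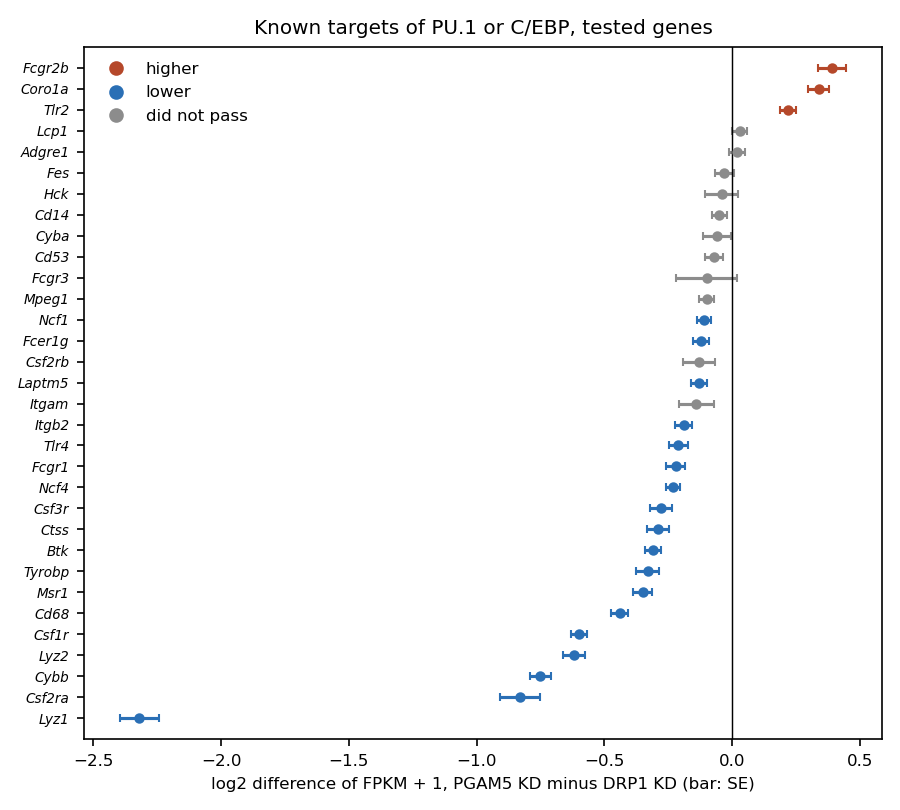
Log2 difference of FPKM + 1 with its SE, PGAM5 knockdown minus DRP1 knockdown (x axis), for 32 tested target genes of PU.1 or C/EBP. Most points lie left of 0, with Lyz1 (-2.32) farthest, and Fcgr2b (0.39), Coro1a (0.34) and Tlr2 (0.22) on the right.

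For each factor that passed, the 2 tested genes with the most similar values over the 6 libraries were found by Pearson's r of log2(FPKM + 1), leaving out predicted genes. They were Shprh (0.992) and Bhlhe40 (0.9919) for Cebpa, Mfap3 (0.9985) and Supt16 (0.9957) for Cebpb, Ubl4a (0.9993) and Dmwd (0.9991) for Cebpd, and Pigq (0.9968) and Hs1bp3 (0.9951) for Zeb2. The 6 points share their libraries and any difference between the groups, so these values are a description. For Cebpd 131 genes had an r above 0.99, against 3 for Cebpa, 7 for Cebpb and 10 for Zeb2.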

How the data were processed

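Poly-A RNA of 6 libraries was sequenced, 3 per knockdown, grouped by their titles. The authors deposited 1 FPKM value per gene and library. HISAT2 2.0.5, featureCounts 1.5.0-p3 and mm10 are named in the submitters' processing notes. For the annotation, FPKM formula and strand setting the sources used here give nothing; per the labels' protocols the libraries may be stranded or unstranded. Scaling by the total means that a change in abundant genes shifts the others.

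Symbols, coordinates and exon lengths came from GENCODE M21 on the same build (54495 of 54532 identifiers matched). Multiplying FPKM by exon length and a library's depth gave whole fragments (tolerance 0.02) for 96.08% to 96.14% of values above 0, including all 9 factors. Tests used limma 3.58.1 in R 4.3.3 (trend, two-sided) on log2(FPKM + 1) and scipy 1.17.1 for exact permutation tests, and the steps were tested on simulated data. The simulation gave every gene the same added spread between libraries, unlike these data, so it checks the steps and is no support for the calls. Similar sequence was searched with blastn 2.17.0 at 97% identity over 100 bases, which found no match to the factors besides genes overlapping them.

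The factors and gene lists were chosen with earlier results of these data known. Shares of a list set beside those of all tested genes are therefore descriptions. Named genes are all factors, up to 6 called genes per list with the largest differences, the most abundant marker of each other cell type, overlapping genes and the 2 most similar genes. Paralogs, partners and other genes named beyond this rule were chosen after their values were seen. Values of 2 tested genes are counted in their lists but not reported here. The 13 alternatives changed the pseudocount, the filter, the trend, the scaling (quantile, median ratio), the model (voom on recovered fragments, replicate block) or left out 1 library.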

Additional observations from a re-analysis of the deposited data

How the results depend on the processing

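Cebpa and Cebpd kept their calls in all 13 alternatives, while Cebpb, Zeb2, Klf11, Ncf1 and Bhlhe40 lost theirs in some. So did Fcer1g and Laptm5, which are among the 18 lower targets of PU.1 or C/EBP and kept their calls in 5 and 8 of 13. The factors that fell numbered 1 in place of 3 with no expression filter and with the replicate block, and 1 to 3 when a library was left out, 1 of them without library 2 or 3 of the DRP1 knockdown. Those that rose numbered 2 in place of 1 with voom, and 1 to 2 when a library was left out. Under quantile normalization the log2 difference of Spi1 was -0.01. With no filter 1 c-MAF target, Il10, rose in place of 0. Over all genes 1240 fell, and 819 to 1287 did when a library was left out, with fewer samples in each fit.

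Libraries with the same number did not deviate together (correlations of deviations from the group mean 0.021, 0.031 and 0), so the replicate block, under which 1161 genes rose and 972 fell, is not a paired analysis. With it Cebpb (limma adjusted p = 0.053), Zeb2 (0.067), Klf11 (0.07), Ncf1 (0.07), Fcer1g (0.056) and Bhlhe40 (0.054) did not pass. Depth limits Cebpa, Klf4 and Il10, which rest on 1 to 291 fragments per library, and counting intervals would cover counting error only.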

Other observations

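Among the other myeloid factors outside the naming rule, chosen after their values were seen, 3 more rose and 3 more fell in the PGAM5 knockdown. Bcl6, a repressor known from germinal centre B cells and from restraint of inflammatory genes in macrophages, measured 29.4 ± 0.0229 FPKM against 21.9 ± 0.207 (SD, n = 3). Batf, an AP-1 family member, measured 21.9, 22.2 and 22.8 FPKM against 15.6, 15.0 and 15.8, and Nfil3, a basic leucine zipper repressor, 73.2 ± 0.773 against 65.4 ± 1.56. The nuclear receptor partner gene Rxra stood at 2.62 ± 0.271 against 3.97 ± 0.0408 FPKM, the lymphoid and myeloid factor Ikzf1 at 19.6 ± 0.41 against 24.3 ± 0.222, and Bhlhe40 at 11.4 ± 0.3 against 13.1 ± 0.563. Bhlhe40 alone of these 6 lost its call in any alternative, without library 2 of the PGAM5 knockdown, without library 1 or 3 of the DRP1 knockdown and with the replicate block (limma adjusted p of up to 0.08).

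The repressor gene Bhlhe41 overlaps the antisense gene Gm43909 over 19.0% of its exon sequence, and Csf1r overlaps Hmgxb3 on the other strand over 15.1%. Gm43909 stood at 0.152 ± 0.103 and 0.208 ± 0.129 FPKM, and Hmgxb3 at 15.2 ± 0.41 and 16.5 ± 0.264.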
